A study of Homo sapiens with 18 samples.

Results

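This is an account of 39 genes of the NRF2 antioxidant response and of glutathione metabolism in 3 human lung cancer cell lines, before and after a TGFβ-induced epithelial-mesenchymal transition (EMT). The genes were chosen by symbol, as known NRF2 targets and glutathione enzymes, with earlier results of these data known. All 39 were found, each in a single row, among the 19849 genes of the expression table. NRF2, encoded by NFE2L2, is a transcription factor that KEAP1 binds in the cytoplasm and hands to the ubiquitin ligase CUL3 for degradation. Oxidants and electrophiles modify KEAP1, NRF2 then escapes, pairs with small MAF proteins and binds antioxidant response elements near its targets. Those targets make and recycle glutathione, supply NADPH, reduce quinones, aldehydes and peroxides and store iron, and loss of KEAP1 is a common route by which lung tumors keep the programme switched on. A549 cells are known from the literature to carry a loss-of-function mutation of KEAP1. The arrays read mRNA and do not show that mutation.

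Gene expression was measured on 18 arrays, 3 in each of 6 groups, in lines of non-small cell lung cancer. The lines were A549, HCC827, which is driven by mutant EGFR, and NCI-H358, and each group is of a single line. Parental cells were grown in RPMI1640 with 10% FBS and 4 mM glutamine. Mesenchymal cells were kept in the same medium with TGFβ at 2 ng/ml for 3 weeks according to the labels, and were moved to TGFβ-free medium on the day before lysis. The methods give a longer range of exposure for HCC827 and NCI-H358 than for A549, and both ranges include the 3 weeks of the labels. A difference in the EMT change between lines therefore cannot be told apart from a possible difference in exposure. Nor can the KEAP1 mutation be told apart from everything else that distinguishes A549 from the other lines. Reduced glutathione itself was measured by the study in a separate metabolite assay, which was not analysed here.

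Levels are log2 values after the robust multi-array average (RMA) normalization, so that a difference of 1 is 2-fold. A gene was called in a comparison when limma gave a Benjamini-Hochberg adjusted p below 0.05 over all 19849 genes and the difference was at least 2-fold. Genes are said to rise or fall upon EMT only where they were called. The table keeps 1 probe set per gene, and a level says nothing about the level of another gene. No detection calls were used, so a fold against a dim level may be smaller than the true one. The array medians lay between 6.31 and 6.47, and the median SD of a member within a group of 3 arrays was 0.0648. Upon EMT the epithelial markers CDH1 and EPCAM fell in all 3 lines, while KRT8 and KRT18 fell in HCC827 and NCI-H358. The mesenchymal markers CDH2 and FN1 rose in all 3 lines, and VIM and ZEB1 rose in HCC827 and NCI-H358. In A549, KRT8 and KRT18 were also lower and VIM and ZEB1 also higher with limma's adjusted p below 0.05, but by less than 2-fold. Parental A549 cells already had less CDH1 and EPCAM and more VIM and ZEB1 than the parental cells of either other line. CDH2 was called higher in parental A549 than in the mean of the other lines and than in HCC827, but not than in NCI-H358. The part of this state in the differences between lines was not tested. Of 6 markers of leukocytes, endothelium and fibroblasts, 0 were called in any of these comparisons by limma, and 0 to 3 had an adjusted p below 0.05.

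Promoter sequence is shown here for 6 members that hold the NRF2 recognition core, to let the core be seen where it lies. The core TGACNNNGC was searched on both strands in the windows from 250 bases before to 50 bases after each RefSeq start site (GRCh38.p14). A window was given for 31 of the 39 members, and 10 of these (32.3%) held the core. The same holds for 2756 of the 15018 genes of the table that have a window (18.4%). GCLM and KEAP1 hold an identical core, TGACTAAGC, and each is printed on the plus strand, chr1:93909446-93909474 with the core centred at -30 from the start site and chr19:10502784-10502812 with the core at -27. GPX2 (chr14:64942849-64942877, plus strand, core at -118) and TXNRD1 (chr12:104215670-104215698, plus strand, core at -95) have cores of their own. ME1 (chr6:83431170-83431198, minus strand, core at -133) and GSTP1 (chr11:67583736-67583764, plus strand, core at -62) share TGACTCAGC, which contains the AP-1 site TGACTCA. That form was held by 2 of 31 members (6.45%) and by 104 of the 15018 genes (0.693%). Capitals mark the core, and all of these stretches lie upstream of the gene.
GCLM: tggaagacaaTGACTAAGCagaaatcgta
KEAP1: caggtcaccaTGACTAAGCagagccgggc
GPX2: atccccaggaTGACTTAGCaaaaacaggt
TXNRD1: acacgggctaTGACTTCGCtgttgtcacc
ME1: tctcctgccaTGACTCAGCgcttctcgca
GSTP1: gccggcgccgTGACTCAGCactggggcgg
The core was also found in the windows of PGD, GSTO1, MGST1 and GGT1. It was not found in those of NQO1, GCLC, SRXN1, TKT, AKR1C1, AKR1C2 and AKR1C3, among others, which says only that these letters are not in the window. A match is a string of letters and not a bound site. Windows for HMOX1, SLC7A11, GSS, GSR, PRDX1, AKR1B10, MGST2 and FTH1 were not used here.

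Parental A549 cells carried most of the set at higher levels than either of the other lines. Against the mean of parental HCC827 and NCI-H358 cells, 19 of 39 members were called higher and 1 lower, where 8.15% of all genes were called higher and 9.44% lower. The median difference was 0.95 over the members and 0.03 over all genes. For 30 members all 3 A549 arrays lay above all 6 arrays of the other lines, which held for 21.0% of all genes, and for GPX1 and GPX4 they lay below, which held for 18.7%. In mesenchymal cells 18 members were called higher in A549 and 0 lower by limma (background 7.45% and 8.97%), and 3 had a lower level with an adjusted p below 0.05 but less than 2-fold. The median difference was 0.93 over the members and 0.02 over all genes, so the median stayed alike through EMT. The mesenchymal A549 arrays lay above all mesenchymal arrays of the other lines for 26 members (20.1% of all genes) and below them for GPX8 and GSTM3 (20.6%). Set against each line alone, parental A549 had 20 members called higher and 0 lower than HCC827 (limma, background 8.62% and 10.2%, 4 lower with an adjusted p below 0.05) and 22 higher and 2 lower than NCI-H358 (background 9.79% and 10.7%). Mesenchymal A549 had 21 higher and 0 lower than HCC827 (limma, background 7.56% and 9.66%, 5 lower with an adjusted p below 0.05) and 20 higher and 1 lower than NCI-H358 (background 8.82% and 11.0%). The lower ones were GPX1 and GPX3 in parental cells and GPX3 in mesenchymal cells. Against the mean of the other lines, 13 members were called higher in both states. They were NQO1, HMOX1, TRIM16, SRXN1, PGD, TALDO1, TKT, GGT1 and all 5 aldo-keto reductases. Over all genes that share was not counted, and it cannot exceed the 7.45% called higher in mesenchymal cells. Against the same mean, GCLC, GCLM, SLC7A11, ME1, GPX2 and FTL were called higher in parental A549 and not in mesenchymal A549. SLC7A11 was just short in mesenchymal cells, at 1.99-fold. Over a single line, mesenchymal A549 was still called higher for SLC7A11 and FTL (HCC827) and for GCLM (NCI-H358). GSR, TXNRD1, GSTO1, MGST1 and MGST2 were called higher than that mean in mesenchymal A549 and not in parental A549. Over a single line, parental A549 was already called higher for GSR (HCC827) and for GSTO1 and MGST1 (NCI-H358).

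**Figure D1:**
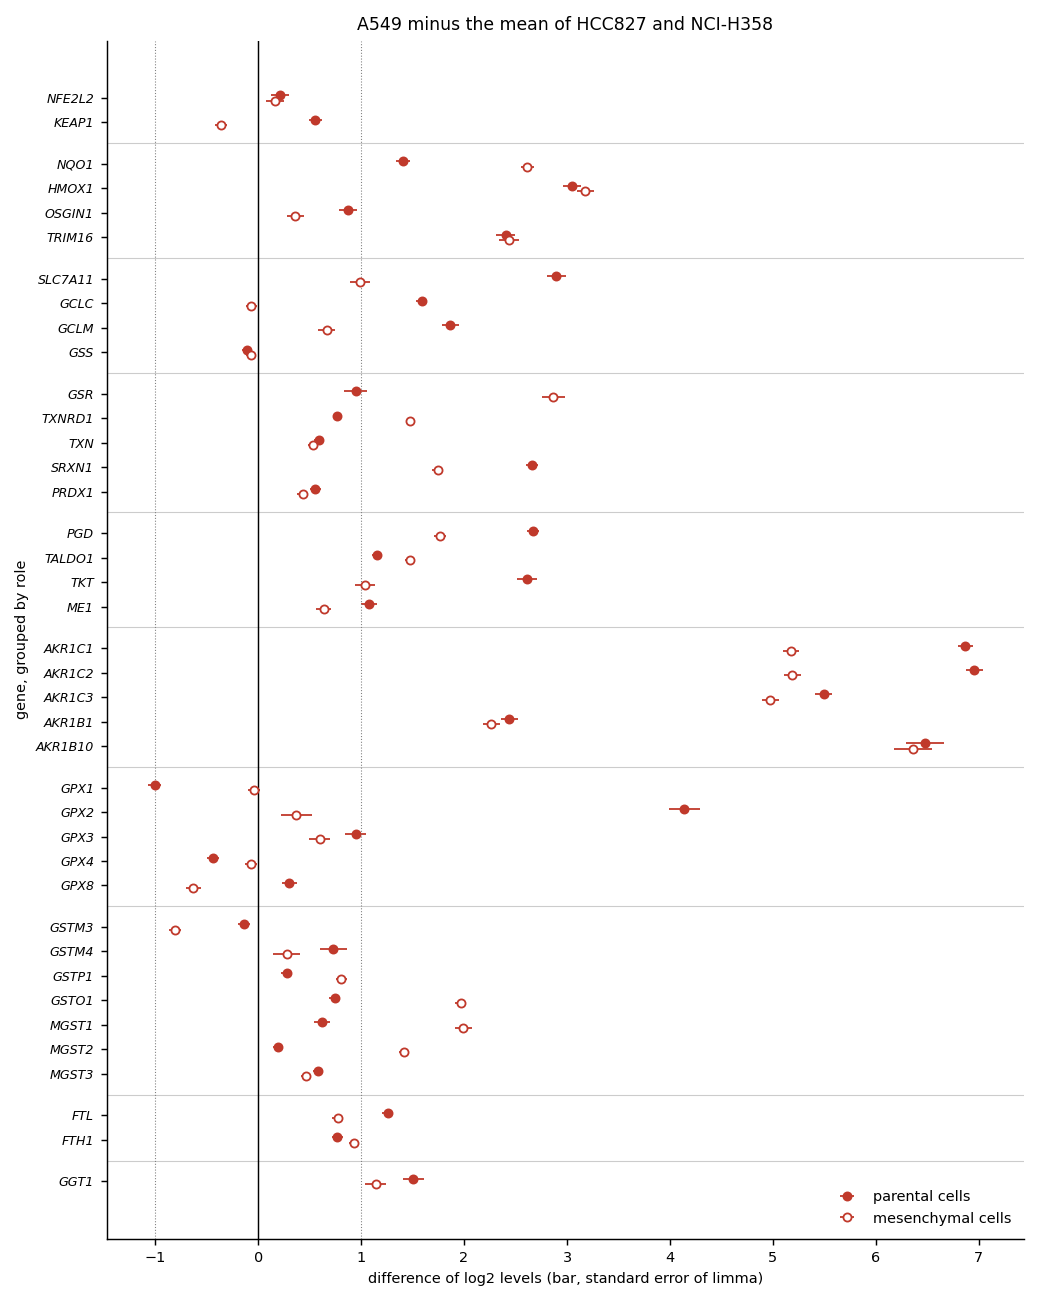
Difference of log2 RMA levels between A549 and the mean of HCC827 and NCI-H358 (x axis) for each of the 39 genes (y axis, grouped by role), in parental (filled) and mesenchymal (open) cells. Bars are standard errors from limma and dotted lines mark 2-fold; AKR1C1, AKR1C2, AKR1C3 and AKR1B10 lie farthest right in both states, whereas GCLC and GPX2 move from 1.59 and 4.14 in parental cells to -0.07 and 0.37 in mesenchymal cells.

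Upon EMT 9 members fell in A549 and 1 rose, where the background was 3.87% and 4.15%. In HCC827, 2 rose and 9 fell (background 4.89% and 6.58%), and in NCI-H358, 2 rose and 5 fell (background 3.96% and 5.42%). The members' median EMT change was -0.48 for A549, -0.33 for HCC827 and -0.22 for NCI-H358, beside -0.02, 0.01 and 0.02 over all genes. GPX2 and AKR1B10 fell in all 3 lines (0.907% of all genes did), and 0 members rose in all 3 lines (0.761%). HMOX1 rose in A549 and HCC827 but was 1.85-fold higher in NCI-H358, short of 2-fold. The EMT change itself was compared between lines in the same limma fit. It differed between A549 and the mean of the other lines for 12 members, 5 with a higher change in A549 and 7 with a lower one (background 6.24% and 4.89%). Between NCI-H358 and HCC827 it differed for 7 members, 7 with a higher change in NCI-H358 and 0 with a lower one (background 5.46% and 5.53%), although 6 were lower there with an adjusted p below 0.05 in limma.

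**Figure D2:**
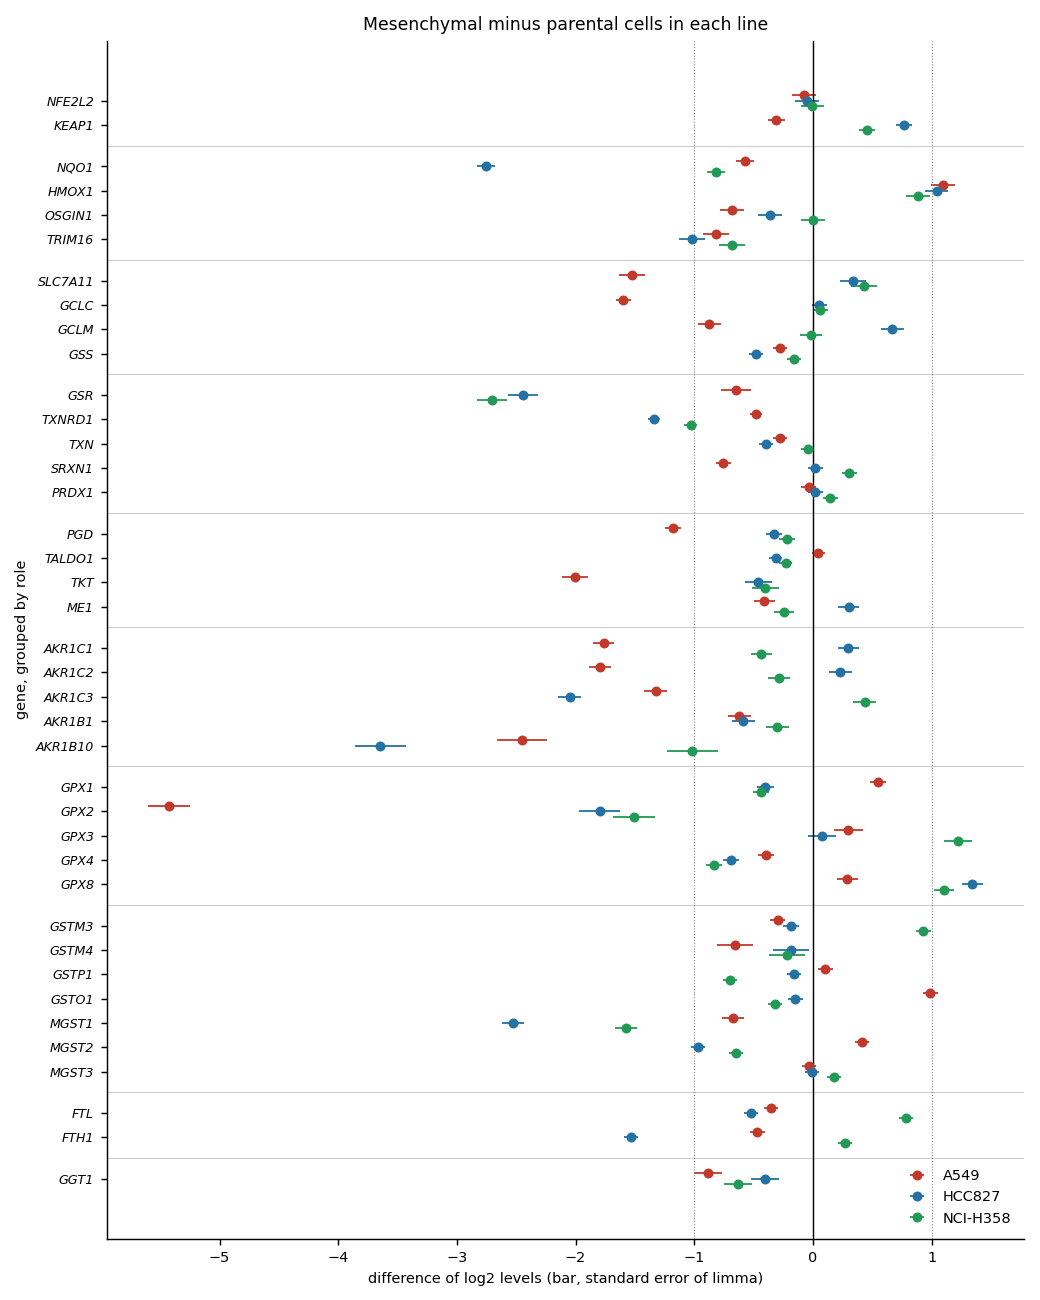
EMT change, mesenchymal minus parental, in log2 RMA units (x axis) of each of the 39 genes (y axis, grouped by role) in A549 (red), HCC827 (blue) and NCI-H358 (green). Bars are standard errors from limma and dotted lines mark 2-fold; SLC7A11, GCLC and GCLM lie left of 0 in A549 and not in HCC827, while GSR and MGST1 lie farther left in HCC827 and NCI-H358 than in A549.

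Of the switch itself, NFE2L2 was called in none of the comparisons given here and its EMT changes were small. NFE2L2 mRNA read 6.54, 6.52 and 6.62 on the parental A549 arrays and 6.39, 6.46 and 6.60 on the mesenchymal ones. In HCC827 it read 6.55, 6.67 and 6.45 in parental and 6.63, 6.54 and 6.35 in mesenchymal cells. In NCI-H358 it read 6.30, 5.99 and 6.15 in parental and 6.02, 6.10 and 6.31 in mesenchymal cells. A549 overlapped HCC827 in both states, and NCI-H358 had the lowest group means. The EMT changes were -0.08 ± 0.10 (SE) for A549, -0.05 ± 0.10 for HCC827 and 0.00 ± 0.10 for NCI-H358, with limma's adjusted p between 0.579 and 0.982. Parental A549 differed from the mean of the other lines by 0.21 ± 0.09 (limma, adjusted p = 0.0435), a 1.16-fold difference. The probe set kept for NFE2L2 sat near the middle of all genes in level, between the percentiles 46.3 and 52.3, and other probe sets for it were not analysed here. NRF2 is controlled mostly through the stability of its protein, which arrays do not read.

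KEAP1, the adaptor that marks NRF2 for degradation, was transcribed in A549 in both states. Its level was 9.75, 9.78 and 9.87 in parental and 9.45, 9.52 and 9.50 in mesenchymal A549 cells. HCC827 had 9.41, 9.53 and 9.58 in parental and 10.29, 10.27 and 10.27 in mesenchymal cells. NCI-H358 had 9.06, 9.05 and 8.82 in parental and 9.48, 9.38 and 9.45 in mesenchymal cells. Parental A549 therefore lay above every parental array of the other lines, whereas mesenchymal A549 lay between mesenchymal HCC827 and, with some overlap, mesenchymal NCI-H358. KEAP1 changed by -0.31 ± 0.07 for A549, 0.77 ± 0.07 for HCC827 and 0.46 ± 0.07 for NCI-H358, and none of the 3 reached 2-fold. The change in A549 was lower than that in the other lines by 0.92 on the log2 scale (SE 0.09), 1.89-fold (limma, adjusted p = 1.67e-07), which also missed the 2-fold threshold.

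Among the classical targets, NQO1, the quinone reductase most often used to read NRF2 activity, was highest in A549 in both states. Parental A549 cells read 12.85, 12.88 and 12.62, and mesenchymal A549 cells 12.22, 12.20 and 12.20. In HCC827 NQO1 went from 11.26, 11.17 and 11.17 to 8.54, 8.45 and 8.35. In NCI-H358 it went from 11.55, 11.53 and 11.59 to 10.65, 10.71 and 10.85. The arrays of A549 lay above those of the other lines in both states, by 2.65-fold in parental (limma, adjusted p = 4.54e-12) and 6.13-fold in mesenchymal cells (limma, adjusted p = 1.38e-15). NQO1 fell 6.74-fold in HCC827, while the lower levels in NCI-H358 (1.76-fold) and A549 (1.49-fold) stayed short of 2-fold. Its EMT change was higher in A549 than the mean change of the other lines by 1.21 ± 0.09 (limma, adjusted p = 1.3e-08), a mean that rests mostly on HCC827. The change was higher in NCI-H358 than in HCC827 by 1.93 ± 0.11 (limma, adjusted p = 3.9e-10).

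HMOX1, which encodes the inducible heme oxygenase and answers to stress signals beyond NRF2, was the only member that passed both the adjusted p and the 2-fold threshold upward in A549. It read 10.36, 10.21 and 10.17 in parental and 11.45, 11.30 and 11.26 in mesenchymal A549 cells. HCC827 went from 7.82, 7.99 and 8.02 to 9.03, 9.02 and 8.90, and NCI-H358 from 6.27, 6.44 and 6.64 to 7.26, 7.24 and 7.51. In every line all mesenchymal arrays lay above all parental arrays. The changes were 1.09 ± 0.10, 1.04 ± 0.10 and 0.88 ± 0.10 in the order A549, HCC827 and NCI-H358, and the change in A549 exceeded that in the others by 0.13 ± 0.12 (limma, adjusted p = 0.431). A549 had 8.27-fold more HMOX1 than the mean of the other lines in parental cells and 9.06-fold more in mesenchymal cells. TRIM16, a ubiquitin ligase gene of the tripartite motif family, was 5.29-fold and 5.41-fold higher in A549 in the respective states. TRIM16 fell 2.03-fold in HCC827 upon EMT. OSGIN1, an oxidative stress-induced growth inhibitor, was 1.83-fold higher in parental A549 than in the others and passed the 2-fold threshold in none of the comparisons given here.

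Of the 4 genes of glutathione synthesis, 3 were called with a lower EMT change in A549 than in the other lines (background 4.89%). SLC7A11 encodes the light chain of the cystine-glutamate exchanger xCT, which brings in the cystine that limits glutathione production. Its level was 11.98, 12.02 and 11.95 in parental and 10.40, 10.52 and 10.45 in mesenchymal A549 cells. In HCC827 it was 8.56, 8.35 and 8.13 in parental and 8.57, 8.73 and 8.74 in mesenchymal cells, and in NCI-H358 9.70, 9.68 and 10.09 in parental and 10.18, 10.28 and 10.31 in mesenchymal cells. SLC7A11 fell 2.87-fold in A549 (limma, adjusted p = 5.01e-09), and was 1.26-fold and 1.35-fold higher in mesenchymal than in parental HCC827 and NCI-H358. The lead of A549 over the mean of the other lines went from 7.44-fold in parental to 1.99-fold in mesenchymal cells. In mesenchymal cells that lead was 3.43-fold over HCC827 and 1.15-fold over NCI-H358 (limma, adjusted p = 0.128), although every A549 array still lay above every array of both lines.

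GCLC, the catalytic subunit of glutamate-cysteine ligase, the rate-limiting enzyme of glutathione synthesis, read 11.77, 11.61 and 11.65 in parental and 10.09, 10.03 and 10.11 in mesenchymal A549 cells. HCC827 read 9.77, 9.75 and 9.67 in parental and 9.84, 9.78 and 9.73 in mesenchymal cells. NCI-H358 read 10.45, 10.51 and 10.38 in parental and 10.56, 10.47 and 10.50 in mesenchymal cells. Parental A549 arrays were thus above all others, and mesenchymal A549 arrays lay between those of HCC827 and NCI-H358. GCLC fell 3.03-fold in A549 (limma, adjusted p = 1.52e-12) and changed by 0.05 ± 0.06 and 0.06 ± 0.06 in HCC827 and NCI-H358. The difference between A549 and the mean of the others was 1.59 ± 0.05 in parental and -0.07 ± 0.05 in mesenchymal cells.

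GCLM, the modifier subunit that makes the ligase more efficient, was 10.85, 10.86 and 11.14 in parental and 10.07, 10.09 and 10.07 in mesenchymal A549 cells. HCC827 had 9.49, 9.71 and 9.74 in parental and 10.23, 10.51 and 10.21 in mesenchymal cells. NCI-H358 had 8.45, 8.52 and 8.61 in parental and 8.44, 8.50 and 8.58 in mesenchymal cells. The parental and mesenchymal arrays did not overlap in A549, where the level was 1.83-fold lower after EMT, nor in HCC827, where it was 1.59-fold higher, and neither reached 2-fold. They overlapped in NCI-H358. The EMT change in A549 was lower than in the other lines for SLC7A11 (-1.91 ± 0.13, limma, adjusted p = 4.96e-09), GCLC (-1.66 ± 0.08, limma, adjusted p = 2.07e-11) and GCLM (-1.20 ± 0.12, limma, adjusted p = 2.7e-07). GSS, glutathione synthetase, which adds glycine in the final step, had an EMT change that differed from that in the others by 0.04 ± 0.07 in A549. Its group means ran from 9.81 to 10.29, and A549 differed from the others by -0.11 ± 0.05 in parental and -0.07 ± 0.05 in mesenchymal cells.

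**Figure D3:**
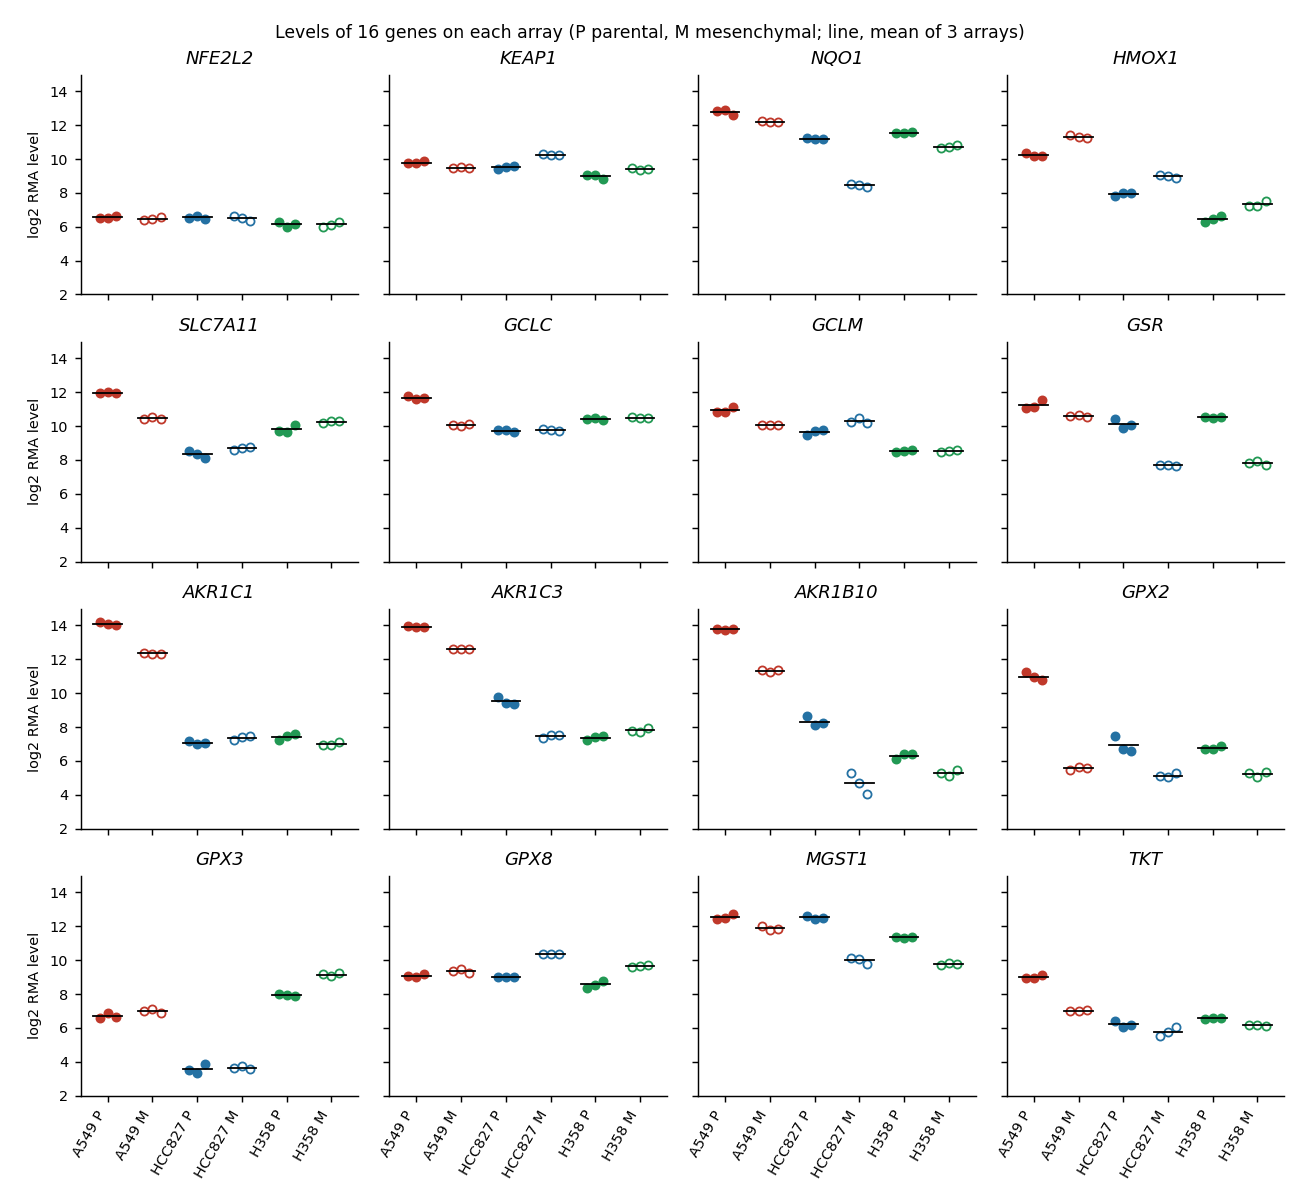
log2 RMA level (y axis) of 16 of the genes on each of the 18 arrays (points), by line and state (x axis; P, parental, filled; M, mesenchymal, open), with horizontal lines at the means of 3 arrays. GCLC and GPX2 drop in A549 to the range of the other lines, AKR1C1 drops by 1.76 yet remains far above them, and GSR drops by 2.44 in HCC827 and 2.70 in NCI-H358.

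Of the genes that recycle glutathione and thioredoxin, GSR and TXNRD1 fell in HCC827 and NCI-H358 and were not called in A549. GSR, glutathione reductase, which uses NADPH to return oxidized glutathione to its reduced form, read 11.09, 11.13 and 11.57 in parental and 10.60, 10.68 and 10.57 in mesenchymal A549 cells. In HCC827 it went from 10.40, 9.88 and 10.07 to 7.70, 7.68 and 7.65, and in NCI-H358 from 10.54, 10.47 and 10.55 to 7.81, 7.96 and 7.68. Mesenchymal A549 arrays therefore lay above even the parental arrays of the other lines. GSR fell 5.43-fold in HCC827 and 6.50-fold in NCI-H358, and was 1.57-fold lower in A549. The change in A549 was higher by 1.92 ± 0.15 (limma, adjusted p = 2.5e-08), and the difference between A549 and the others was 1.93-fold in parental and 7.30-fold in mesenchymal cells.

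TXNRD1, thioredoxin reductase, fell 2.53-fold in HCC827 and 2.04-fold in NCI-H358 and was 1.39-fold lower in A549. That contrast in the EMT change was 0.71 ± 0.06 (limma, adjusted p = 8.86e-08), which is less than 2-fold. In mesenchymal cells A549 had 2.78-fold more TXNRD1 than the others. SRXN1, sulfiredoxin, which repairs overoxidized peroxiredoxins, was 6.32-fold higher in parental and 3.34-fold higher in mesenchymal A549. TXN, thioredoxin, and PRDX1, peroxiredoxin 1, were 1.51-fold and 1.47-fold higher in parental A549, with no EMT change beyond 2-fold. These 3 genes had an EMT change in A549 of -0.76, -0.28 and -0.04 respectively.

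The 4 genes of NADPH supply were all called higher in parental A549 than in the mean of the other lines (background 8.15%). TKT, transketolase of the non-oxidative pentose phosphate pathway, showed the largest EMT change of the group on the probe set kept for it, and other probe sets for TKT were not analysed here. Its probe set read 8.96, 8.92 and 9.12 in parental and 6.97, 6.97 and 7.05 in mesenchymal A549 cells. HCC827 had 6.42, 6.05 and 6.18 in parental and 5.51, 5.73 and 6.04 in mesenchymal cells, and NCI-H358 6.53, 6.57 and 6.58 in parental and 6.19, 6.18 and 6.11 in mesenchymal cells. A549 was above the other lines on every array in both states, by 6.11-fold before and 2.05-fold after EMT. TKT fell 4.01-fold in A549 and was 1.37-fold and 1.32-fold lower in HCC827 and NCI-H358, a difference in the change of -1.57 ± 0.14 (limma, adjusted p = 6.26e-08). PGD, which yields NADPH in the oxidative branch, fell 2.26-fold in A549 and kept a 3.39-fold lead there, down from 6.37-fold. TALDO1, transaldolase, did not follow. Its change in A549 was 0.04 ± 0.06, and its lead was 2.23-fold in parental and 2.77-fold in mesenchymal cells. ME1, the cytosolic malic enzyme, led 2.11-fold in parental and 1.55-fold in mesenchymal A549.

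The aldo-keto reductases, which reduce aldehydes, ketones and steroids, gave the 4 largest differences between A549 and the other lines in each state. All 5 were called higher in both states, where the background was 8.15% in parental and 7.45% in mesenchymal cells. AKR1C1 read 14.18, 14.11 and 14.06 in parental and 12.39, 12.34 and 12.33 in mesenchymal A549 cells. HCC827 read 7.15, 7.01 and 7.05 in parental and 7.23, 7.43 and 7.46 in mesenchymal cells, and NCI-H358 7.23, 7.45 and 7.57 in parental and 6.91, 6.94 and 7.09 in mesenchymal cells. No array outside A549 came near those of A549 in either state. AKR1C1 fell 3.39-fold in A549 (limma, adjusted p = 3.47e-11), and the lead over the other lines went from 117-fold to 36.2-fold.

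AKR1C2 behaved alike, at 13.57, 13.50 and 13.44 in parental and 11.69, 11.76 and 11.67 in mesenchymal A549 cells. HCC827 had 6.51, 6.43 and 6.21 in parental and 6.48, 6.53 and 6.84 in mesenchymal cells, and NCI-H358 6.59, 6.71 and 6.81 in parental and 6.40, 6.42 and 6.44 in mesenchymal cells. It fell 3.47-fold in A549, and the lead went from 124-fold to 36.5-fold. The probe sets for AKR1C1 and AKR1C2 are of the kind that can share probes with related sequences, so these close paralogs may not have been read separately. The EMT change in A549 was lower than in the other lines by 1.69 on the log2 scale for AKR1C1 (SE 0.11) and by 1.77 for AKR1C2 (SE 0.12).

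AKR1C3, which also makes prostaglandins and androgens, was read by a probe set of its own. It was 13.96, 13.89 and 13.94 in parental and 12.62, 12.60 and 12.59 in mesenchymal A549 cells. In HCC827 it went from 9.75, 9.42 and 9.36 to 7.33, 7.55 and 7.51, and in NCI-H358 from 7.21, 7.42 and 7.45 to 7.75, 7.72 and 7.92. The parental order A549, HCC827, NCI-H358 had no overlap, and after EMT HCC827 lay just below NCI-H358. AKR1C3 fell 2.50-fold in A549 and 4.14-fold in HCC827, and its change in NCI-H358 was 0.44 ± 0.10. The change was higher in NCI-H358 than in HCC827 by 2.49 ± 0.14 (limma, adjusted p = 4.82e-10).

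AKR1B10, a retinal and aldehyde reductase expressed in squamous and smoking-related lung tumors, fell in all 3 lines. A549 went from 13.80, 13.76 and 13.81 to 11.37, 11.28 and 11.37. HCC827 went from 8.65, 8.10 and 8.22 to 5.29, 4.70 and 4.05, and NCI-H358 from 6.12, 6.38 and 6.38 to 5.27, 5.12 and 5.44. The mesenchymal HCC827 arrays had the largest spread of any member in any group (SD 0.62). The mesenchymal means sat at the percentiles 25.4 in HCC827 and 33.7 in NCI-H358 of all genes. The signal was not shown to be above background there, so folds against these groups are uncertain. It fell 5.47-fold in A549, against 12.5-fold in HCC827 and 2.02-fold in NCI-H358. The lead of A549 over the mean of the other lines was 89.2-fold before and 82.1-fold after EMT. Over HCC827 alone it went from 44.1-fold to 101-fold, and over NCI-H358 alone from 180-fold to 66.7-fold. The change in A549 minus the mean change in the other lines was -0.12 ± 0.26 (limma, adjusted p = 0.756), and that mean describes neither line. AKR1B1, aldose reductase, was 5.43-fold and 4.80-fold higher in A549 in parental and mesenchymal cells, with EMT changes from -0.62 to -0.30.

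The glutathione peroxidases, which spend glutathione to reduce peroxides, did not move as a group. GPX2, the epithelial and gastrointestinal member of the family, had the largest EMT change of all 39 genes. In A549 it went from 11.22, 10.94 and 10.78 to 5.43, 5.65 and 5.58. HCC827 went from 7.48, 6.73 and 6.59 to 5.08, 5.03 and 5.28, and NCI-H358 from 6.68, 6.71 and 6.87 to 5.29, 5.06 and 5.37. Parental A549 stood far above the rest, while mesenchymal A549 lay only just above the mesenchymal arrays of the other lines. GPX2 fell 42.9-fold in A549 (limma, adjusted p = 1.46e-13), 3.48-fold in HCC827 and 2.85-fold in NCI-H358. The change in A549 was lower by 3.77 on the log2 scale (SE 0.21, limma, adjusted p = 3.16e-10), and the lead of A549 went from 17.6-fold to 1.29-fold.

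GPX8, a peroxidase of the endoplasmic reticulum, rose in the lines in which GSR fell. It read 9.04, 9.03 and 9.19 in parental and 9.38, 9.48 and 9.27 in mesenchymal A549 cells. HCC827 went from 9.00, 9.01 and 9.01 to 10.34, 10.36 and 10.35, and NCI-H358 from 8.36, 8.56 and 8.77 to 9.61, 9.68 and 9.71. Mesenchymal A549 lay below all mesenchymal arrays of the other lines. The rise was 2.54-fold in HCC827 and 2.15-fold in NCI-H358, with 1.22-fold in A549, and the difference in the change of -0.93 ± 0.11 (limma, adjusted p = 1.65e-06) was short of 2-fold.

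GPX3, the secreted plasma peroxidase, split the lines in another order. It was 6.59, 6.87 and 6.61 in parental and 6.97, 7.12 and 6.88 in mesenchymal A549 cells. HCC827 had 3.49, 3.31 and 3.88 in parental and 3.60, 3.77 and 3.55 in mesenchymal cells, and NCI-H358 7.98, 7.92 and 7.88 in parental and 9.16, 9.06 and 9.22 in mesenchymal cells. HCC827 was lowest and NCI-H358 highest with no overlap in either state, so the mean of these lines describes neither. The group means in HCC827 sat at the percentiles 11.5 and 11.9 of all genes, where the signal was not shown to be above background, so no fold against HCC827 is given. Parental A549 had 2.36-fold less GPX3 than parental NCI-H358. GPX3 rose 2.33-fold in NCI-H358 upon EMT, and its measured change exceeded that in HCC827, where the signal was dim, by 1.14 ± 0.17 (limma, adjusted p = 3.69e-05). GPX1, the general cytosolic peroxidase, was 2.01-fold lower in parental A549 than in the others and differed by -0.04 ± 0.06 in mesenchymal cells. GPX4, which reduces lipid peroxides and guards against ferroptosis, was 1.36-fold lower in parental A549, with EMT changes of -0.39, -0.69 and -0.83 in A549, HCC827 and NCI-H358, all less than 2-fold.

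Of the 7 glutathione transferases, 0 were called between parental A549 and the mean of the other lines by limma (background 8.15% and 9.44%). All 7 had an adjusted p below 0.05, as did 11881 of the 19849 genes. In mesenchymal cells GSTO1, MGST1 and MGST2 were called higher in A549 (background 7.45%). MGST1, a microsomal transferase and peroxidase, was 12.44, 12.50 and 12.72 in parental and 12.01, 11.80 and 11.83 in mesenchymal A549 cells. HCC827 went from 12.61, 12.46 and 12.52 to 10.14, 10.08 and 9.79, and NCI-H358 from 11.34, 11.31 and 11.38 to 9.70, 9.82 and 9.79. A549 and HCC827 overlapped as parental cells and were far apart as mesenchymal cells. MGST1 fell 5.76-fold in HCC827 and 2.97-fold in NCI-H358 and was 1.60-fold lower in A549, and the change in A549 was higher by 1.37 ± 0.11 (limma, adjusted p = 4.14e-08).

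GSTO1, an omega-class transferase, was 1.98-fold higher in mesenchymal than in parental A549 and 1.11-fold and 1.25-fold lower in mesenchymal HCC827 and NCI-H358. Its lead in A549 was 1.67-fold before and 3.91-fold after EMT. MGST2, a microsomal transferase that also makes leukotriene C4, was 1.33-fold higher after EMT in A549 and 1.96-fold and 1.57-fold lower in HCC827 and NCI-H358. The change in A549 was higher than in the other lines by 1.22 ± 0.08 for GSTO1 and 1.22 ± 0.07 for MGST2. GSTP1, the pi-class enzyme and the main cytosolic transferase of lung, was near 12 in all groups but mesenchymal NCI-H358, whose mean was 11.29. GSTM3 of the mu class was 2.74-fold lower in parental NCI-H358 than in parental HCC827, and its EMT change was higher in NCI-H358 by 1.12 ± 0.09. GSTM4 had group means from 3.79 to 4.97, and MGST3 was 2.51-fold lower in parental NCI-H358 than in parental HCC827 with EMT changes between -0.03 and 0.18.

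The ferritin chains, which store iron and are induced by NRF2 as well as by iron itself, diverged between HCC827 and NCI-H358. FTL, the light chain, was 2.39-fold higher in parental A549 than in the others. Its EMT change was -0.52 ± 0.06 in HCC827 and 0.78 ± 0.06 in NCI-H358. FTH1, the heavy chain, fell 2.90-fold in HCC827 and changed by 0.27 ± 0.06 in NCI-H358. The change was higher in NCI-H358 by 1.30 ± 0.08 for FTL and 1.81 ± 0.09 for FTH1 (limma, adjusted p = 2.91e-09 and 7.65e-11). GGT1, the surface enzyme that starts the breakdown of extracellular glutathione, was 2.84-fold higher in parental and 2.20-fold higher in mesenchymal A549. Its level was 1.84-fold, 1.33-fold and 1.55-fold lower after EMT in A549, HCC827 and NCI-H358. The probe sets for FTL and GGT1 can also share probes with related sequences.

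Between HCC827 and NCI-H358 members were called in both directions. Parental NCI-H358 had 2 members called higher and 8 lower than parental HCC827 (background 7.27% and 7.91%), and mesenchymal NCI-H358 had 4 higher and 3 lower (background 7.72% and 7.51%). SLC7A11 and GPX3 were higher in NCI-H358 in both states, and HMOX1, GCLM and MGST3 were lower in both states. The median difference of the members was -0.18 in parental and 0.04 in mesenchymal cells.

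Genes outside the set give a setting for these values. Their lists, like the members, were chosen with earlier results of these data known, so the counts describe the data and are not an independent test. Of 19 further genes linked to NRF2, 15 were called higher in parental A549 and 8 in mesenchymal A549 by limma (background 8.15% and 7.45%). Upon EMT 11 of them fell in A549 (background 3.87%), against 6 each in HCC827 (6.58%) and in NCI-H358 (5.42%). Of the rest, 1 was higher in mesenchymal than in parental HCC827 with an adjusted p below 0.05 and less than 2-fold. In parental cells the largest differences were those of NR0B1, a nuclear receptor (48.6-fold), ALDH3A1, an aldehyde dehydrogenase (42.6-fold), and ABCC2, a drug and conjugate exporter (9.83-fold). ABCG2, ALDH3A1 and ABCC2 fell 29.5-fold, 26.3-fold and 24.1-fold in A549 upon EMT.

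Glutathione genes that are not counted among the 39 were called at shares near the background in parental A549. Of 34, 3 were called higher and 3 lower there (background 8.15% and 9.44%), and 6 higher and 1 lower in mesenchymal A549 (background 7.45% and 8.97%). The largest parental difference was that of GSTT1, a theta-class transferase, which was 14.9-fold lower in A549 than in the other lines. Upon EMT ANPEP, a peptidase that cleaves the dipeptide left after glutathione breakdown, rose 8.04-fold in A549 and 6.97-fold in HCC827. Of 21 other antioxidant genes, 2 were called higher and 4 lower in parental A549 (background 8.15% and 9.44%), with PRDX2, a peroxiredoxin, 223-fold lower there. Of 15 genes for regulators of NRF2, 4 were called higher and 1 lower in parental A549 (background 8.15% and 9.44%). SQSTM1, the p62 receptor that draws KEAP1 into autophagy, was 3.55-fold and MAFK, a small MAF partner of NRF2, 2.92-fold higher, and BACH2, a repressor related to BACH1, was 2.91-fold lower.

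**Figure D4:**
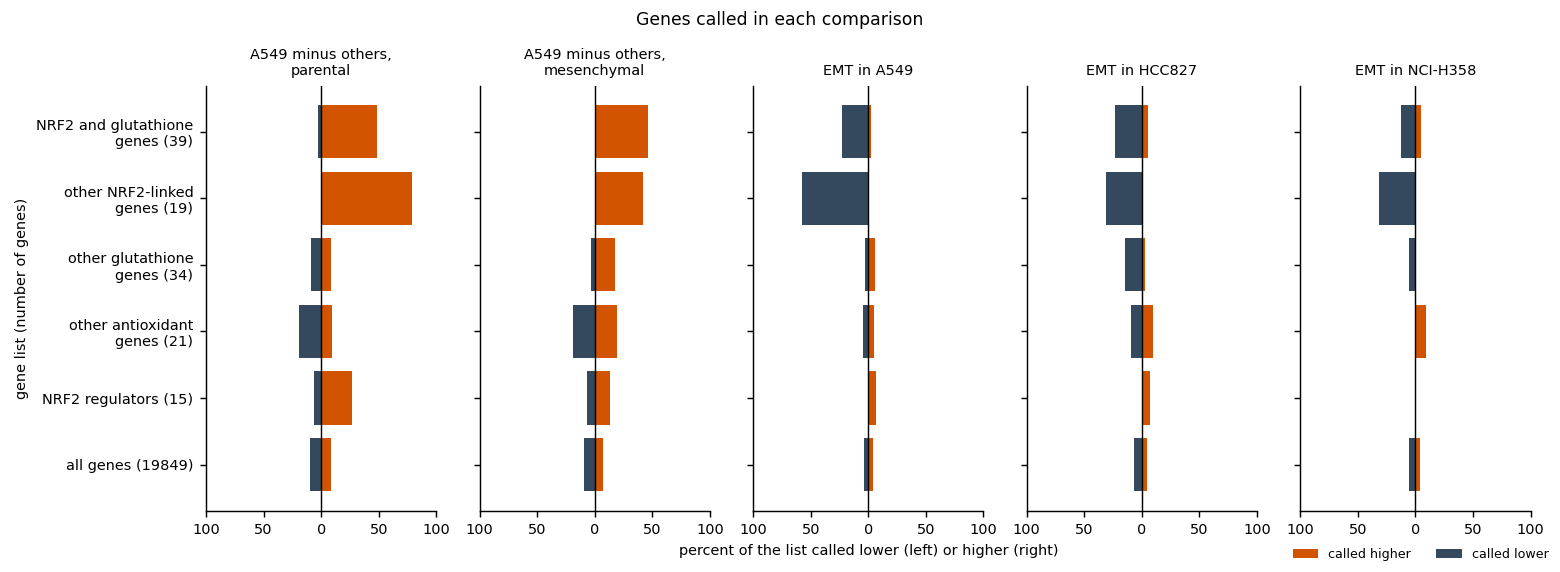
Percent of each gene list called higher (orange, right) or lower (dark, left) in 5 comparisons (panels), with all 19849 genes as the bottom bar; the numbers in brackets are genes per list. The NRF2 and glutathione genes and the other NRF2-linked genes have long bars to the right for A549 against the other lines and bars to the left upon EMT, while the other glutathione and antioxidant genes have short bars, on both sides in every panel but that of NCI-H358.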

How the data were processed

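Total RNA of 18 cultures was hybridised to Affymetrix U133 Plus 2.0 arrays. Per the labels the authors used RMA, and the deposited table holds log2 expression values of 19849 genes with 1 probe set per gene. How that probe set was kept, and the software version and annotation, were not given in the sources used here. Each of the 18 columns bears the title of 1 sample. The arrays of a group came from biological samples made at the same time, so p-values measure the spread within that experiment, and 3 arrays per group limit the precision.

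All 18 arrays were fitted in limma 3.58.1 (R 4.3.3; lmFit, eBayes) with 6 groups and no covariate, and p-values were adjusted over 19849 genes. Lines were compared within a state, mesenchymal with parental cells within a line, and EMT changes between lines as contrasts. The fit was tested on simulated data. Promoter windows (GRCh38.p14) are from RefSeq. The 39 members and the other gene lists were chosen with earlier results of these data known. All arrays are given for the NRF2 switch, NQO1, SLC7A11, GCLC, GCLM and the 5 called members with the largest difference in each EMT comparison and in A549 against the other lines; of other lists, at most the 3 largest called genes per comparison are named. Alternatives were other thresholds, separate fits, an intensity trend, a filter on dim genes, the methods' t-test, array centring and arrays left out.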

Additional observations from a re-analysis of the deposited data

Results flagged for a closer look

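A difference between lines in the EMT change, tested as a contrast in the limma fit of 18 arrays, marked 12 members for A549 against the mean of HCC827 and NCI-H358. On the log2 scale the change in A549 was higher for NQO1 (1.21), GSR (1.92), GSTO1 (1.22), MGST1 (1.37) and MGST2 (1.22). It was lower for SLC7A11 (-1.91), GCLC (-1.66), GCLM (-1.20), TKT (-1.57), AKR1C1 (-1.69), AKR1C2 (-1.77) and GPX2 (-3.77). Synthesis genes are therefore among those with the lower change in A549, and GSR, MGST1 and MGST2 among those with the higher change. GPX2 was dim in the mesenchymal cells of every line, which limits how its falls compare.

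The same contrast between NCI-H358 and HCC827 marked 7 members, with a higher change in NCI-H358 for NQO1 (1.93), AKR1C3 (2.49), AKR1B10 (2.63), GPX3 (1.14), GSTM3 (1.12), FTL (1.30) and FTH1 (1.81). NQO1 is marked by both contrasts, and its largest fall was in HCC827 (6.74-fold), beside levels 1.76-fold lower in NCI-H358 and 1.49-fold lower in A549. AKR1B10 and GPX3 were dim in mesenchymal HCC827, so the size of their differences is uncertain. The labels give 3 weeks of TGFβ for every line. Any longer exposure of HCC827 and NCI-H358, which the range in the methods allows, cannot be told apart from the line in the A549 contrast.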

How the results depend on the processing

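The counts of called members depended on the threshold. In the order EMT in A549, HCC827 and NCI-H358, A549 against the others in parental and in mesenchymal cells, NCI-H358 against HCC827 in parental and in mesenchymal cells, EMT change of A549 against the others and of NCI-H358 against HCC827, the counts were 10, 11, 7, 20, 18, 10, 7, 12 and 7. At the study's thresholds for EMT (fold above 5, adjusted p below 1e-05) they were 2, 4, 1, 12, 8, 1, 1, 1 and 2, of 378, 585, 430, 967, 865, 658, 689, 449 and 409 genes called. With no threshold on the fold they were 33, 30, 32, 38, 33, 32, 34, 26 and 19, of 8617, 9093, 8211, 11881, 11896, 10450, 10432, 8812 and 7516 genes. With each array left out in turn they ran from 10 to 11, 10 to 11, 6 to 7, 19 to 21, 17 to 19, 10 to 10, 7 to 7, 12 to 13 and 6 to 8. Separate fits, an intensity trend, array centring and the dim-gene filter (which removed GSTM4) kept every count within 1.5 times. So did the methods' t-test (run only where 2 groups are compared) and leaving out the 3 parental arrays of consecutive low title number. With separate fits, the trend, centring or an array left out, 0 called differences of the named members changed sign. Their signs were not compared under the other settings. Small differences that were not called could change sign, as for NFE2L2 upon EMT in HCC827 (-0.11 to 0.03 with an array left out).

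Of the named members' differences, the lead of A549 in SLC7A11 in mesenchymal cells sat at the 2-fold threshold, at 0.99 on the log2 scale in limma, 1.05 with centred arrays and between 0.96 and 1.02 with an array left out (adjusted p at most 1.69e-06). GPX3 lost its call between NCI-H358 and HCC827 for the EMT change without HCC827 parental replicate 3 (0.98). No paired analysis was possible because the sample titles carry no replicate numbers that pair cultures. Arrays have no read depth, and their number limits the precision.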
